A study of Mus musculus with 2 samples.

Results

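The mouse miR-467 and miR-669 families are the larger share of the microRNAs encoded in an intron of the gene Sfmbt2, and 40 of the 1265 mature miRNA probes on the array were designed for them. Members were taken by name alone: every probe for a mouse miR-467 or miR-669 of any letter and either arm, which gave 13 probes for miR-467 and 27 for miR-669. Of these, 18 carry the name of a 3p arm, 15 that of a 5p arm and 7 name no arm. The RNA came from embryoid bodies, cell aggregates that mouse embryonic stem cells form in suspension, on day 10 of differentiation and on day 0. Both groups were cells of 1 line held by ATCC, of strain 129S2/SvPas with no further allele or agent named, grown in medium with 15% fetal bovine serum and aggregated in dishes of ultra-low attachment. The arrays were hybridised with Cy5-labelled total RNA, 1 array for each day, and carry 3 spots per probe. Neither day has a replicate array, so nothing could be tested between the days. Every SD below is over the 3 spots of a probe, is technical and holds none of the variation between cultures. In bulk RNA, fewer cells of a type and less RNA per cell cannot be told apart.

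As background, a miRNA gene is transcribed as a hairpin that Drosha and Dicer cut to a short duplex. Either strand of the duplex, the 5p arm or the 3p arm, can be loaded into an Argonaute protein, and bases 2 to 8 of the loaded arm, the seed, pair with target messages. Sfmbt2 encodes a Polycomb-group protein, is expressed from the paternal allele in extraembryonic tissue of the mouse, and is needed for its placenta. Its intron holds a rodent repeat array in which hairpins of miR-297, miR-466, miR-467 and miR-669 alternate, and these miRNAs are known from mouse embryonic stem cells and placenta.

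The RefSeq gene table for GRCm38.p6 lists 72 precursor genes of these 4 families within Sfmbt2 on chromosome 2, of which 14 are miR-467 and 29 are miR-669 genes. Mir467a alone has 10 copies there and Mir669a has 12. All 40 probes were placed through this table by name without the arm, and not by sequence, 36 of them entirely within the span of Sfmbt2. The other 4 have a precursor elsewhere, so the name of an Sfmbt2 cluster does not cover them. miR-467f lies at chr11:69635419-69635439 on the minus strand, within the span of Fxr2, and miR-467g at chr5:34732872-34732892 on the minus strand, within the span of Grk4. miR-669n lies at chr3:115979905-115979924 on the plus strand, within the span of Slc30a7, and miR-467h at chr9:115381898-115381919 on the plus strand, within no other gene of the table. These coordinates are RefSeq's in GRCm38.p6 and the table does not say whether an exon or an intron holds them.

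The members are repeats of one another, and the sequences below are shown because the results turn on small differences between them. They are the array's target sequences, 5′ to 3′, with the seed in capitals. The first 3 are 3p arms with the most widely shared seed, held by 7 members of both families, and differ among themselves outside it.
miR-467b-3p: aUAUACAUacacacaccaacac
miR-467d-3p: aUAUACAUacacacaccuacac
miR-467e-3p: aUAUACAUacacacaccuauau
The next 3 are the 3p arms of the precursors with the most copies and the 3p member with the highest difference, whose seed no other member holds.
miR-467a-3p: cAUAUACAuacacacaccuaca
miR-669a-3p: aCAUAACAuacacacacacguau
miR-669e-3p: uGAAUAUAcacacacuuacac
Of the 5p arms of miR-467, those of a, b, c and d carry the hexamer AAGUGC in or beside the seed, which they share with miRNAs of embryonic stem cells.
miR-467a-5p: uAAGUGCCugcauguauaugcg
miR-467b-5p: gUAAGUGCcugcauguauaug
miR-467c-5p: uAAGUGCGugcauguauaugug
The following pair shares its seed and differs by 1 base.
miR-467e-5p: aUAAGUGUgagcauguauaugu
miR-467h: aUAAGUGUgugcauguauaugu
The last 4 are 5p arms of miR-669, among which miR-669d-5p and miR-669l-5p also differ by 1 base.
miR-669d-5p: aCUUGUGUgugcauguauaugu
miR-669l-5p: aGUUGUGUgugcauguauaugu
miR-669a-5p: aGUUGUGUgugcauguucaugucu
miR-669e-5p: uGUCUUGUgugugcauguucau
In all, the 40 targets hold 24 distinct seeds, 9 of which occur in 2 or more members. Of the pairs of members, 8 lie 1 edit apart and a further 21 lie 2 edits apart, so a probe may also take up RNA of its neighbours, and the signal of a single member is uncertain. The probe for miR-669a-3p also matches miR-669o-3p, and that for miR-669a-5p also matches miR-669p-5p.

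A probe was called detected if its median spot signal lay above the 95th percentile of the array's 5 blank spots, which was 71.4 on day 10 and 70.0 on day 0. By this rule 35 of the 40 members were detected on day 10 and 36 on day 0. The 4 probes for miR-467d-5p, miR-669g, miR-669j and miR-669k-3p were detected on neither day, and miR-669h-5p was detected on day 0 alone. Across the detected members the median spot signal ran from 42.6 to 2531 on day 10 and from 80.7 to 4515 on day 0. In signal as deposited, the 3 spots of day 10 all lay below the 3 of day 0 for 25 of the 36 members (69.4%), while 11 overlapped and none lay wholly above. Among all detected probes 83.9% lay wholly below and 4.6% wholly above, and the median log2 ratio, day 10 over day 0, was -0.63 for the members and -0.78 for all detected probes. The day 10 array was thus dimmer in general, and the spike-in probes had a median log2 ratio of -0.25 and the 5S rRNA probes one of 0.15. Values below are log2 differences, day 10 minus day 0, after background correction with an offset of 50 and quantile normalization, which set the median of all detected probes at 0.024 and shrink the differences of dim probes.

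Markers of cell types are given first, since every signed difference rests on the days as labelled. Differentiation is known for a decline of miRNAs of embryonic stem cells and the appearance of those of mesenchyme. After normalization both of these marker sets ran against that direction. Of 22 probes for the miR-290 cluster and for miR-302 and miR-367 of embryonic stem cells, 15 were detected on both days, with 4 at least 2-fold higher on day 10, 0 lower and a median log2 difference of 0.38 after normalization. In signal as deposited 11 of these 15 were dimmer on day 10 and 4 brighter, at a median log2 ratio of -0.37. Of the 8 detected probes for fibroblasts or mesenchyme, 5 were lower and 0 higher (median -1.34), and their signals had medians of 74.1 on day 10 and 434 on day 0. Muscle and heart (3 of 15 detected), neuron (3 of 7), blood (4 of 9), endothelium (1 of 2) and surface epithelium (2 of 4) gave few detected probes, and liver none of 2. With liver left out, their median differences were -0.0097, 0.89, 0.094, 0.97 and 1.29 in the same order. At 2-fold, 1 muscle and heart probe was lower and 1 surface epithelium probe higher. The part of a change in cell types in the members' differences was not tested, nor were the labels of the arrays.

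**Figure D1:**
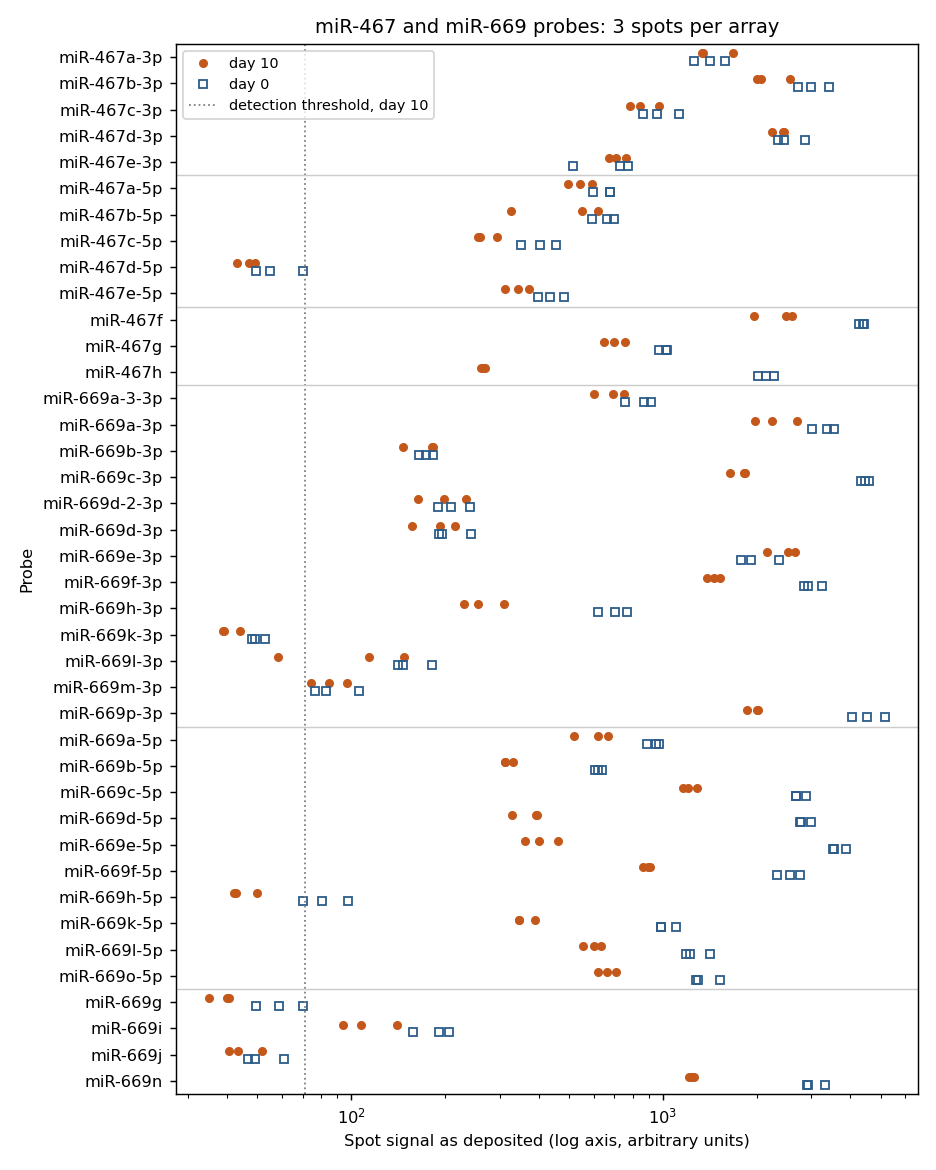
Signal of each of the 3 spots of every miR-467 and miR-669 probe as deposited (log axis, arbitrary units), with filled circles for day 10 and open squares for day 0. The dotted line is the day 10 detection threshold of 71.4, and thin lines part the classes of family and arm. The miR-467h, miR-669d-5p and miR-669e-5p spots of day 10 lie far left of those of day 0, while the spots of 11 detected members overlap between the days.

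Among the 36 detected members, 3 were at least 2-fold higher on day 10 and 3 at least 2-fold lower (8.33% each). Among all 739 detected probes the shares were 6.77% higher and 10.4% lower, so the members' counts lay near those of the array as a whole. The 3 higher members were 3p arms of precursors within Sfmbt2. The 3 lower members were miR-669e-5p, miR-669d-5p and miR-467h, the last of which is encoded outside Sfmbt2. The median difference of the members was 0.34 under quantile normalization, with 23 above 0 and 13 below. That median was -0.56 without normalization, -0.34 when scaled to the spike-in probes and -0.71 when scaled to the 5S rRNA probes, so the direction of the families as a whole is not settled by these arrays. Set against the all-probe median it was 0.31, and 0.065 in each of those 3 settings.

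The counts moved with the scaling, as did those of the whole array. Without normalization 13 members were lower, when scaled to the spike-in probes 8 and when scaled to the 5S rRNA probes 15, where 31.4%, 24.1% and 36.1% of all detected probes were. In those 3 settings 0 members were higher, and of all detected probes 0.812%, 0.812% and 0.541%. In the 6 other settings of background and scaling 3 members were lower each time, where the share of all detected probes was 14.2% with an offset of 16, 12.3% with no background correction, 19.4% with blank spots subtracted, 6.9% with 75th percentile scaling, 11.6% with cyclic loess and 13% on the authors' processed values. In the same order 7, 4, 8, 9, 2 and 3 members were higher, where 11%, 8.25%, 18.4%, 16.5%, 4.6% and 5.14% of all detected probes were. Counts of higher members thus followed the setting, and at least 3 members were lower in all 10 at the 2-fold threshold.

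miR-467 stood above miR-669 and the 3p arms above the 5p arms, whichever scaling was used. The 12 detected miR-467 members had a median difference of 0.73 and the 24 detected miR-669 members one of 0.13, a gap of 0.60 that ran from 0.51 to 0.93 over 19 settings. The 17 detected 3p arms had a median of 0.84 and the 14 detected 5p arms one of 0.13, a gap of 0.71 that ran from 0.57 to 0.81 over 20 settings. A constant shift of 1 array cannot change these gaps or any gap between members below. Without normalization and with spike-in, 5S rRNA or 75th percentile scaling the family and arm gaps were therefore the same, at 0.60 and 0.80. By family and arm the medians were 0.97 for miR-467 3p, 0.73 for miR-467 5p, 0.51 for miR-669 3p and -0.21 for miR-669 5p. The signs of these medians moved with the scaling. Without normalization all 4 were below 0, from -0.094 for miR-467 3p to -1.11 for miR-669 5p, and with 75th percentile scaling all 4 were above 0, miR-669 5p at 0.082. The classes share sequence and probes cannot be taken as replicates, so these gaps describe the 2 arrays.

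**Figure D2:**
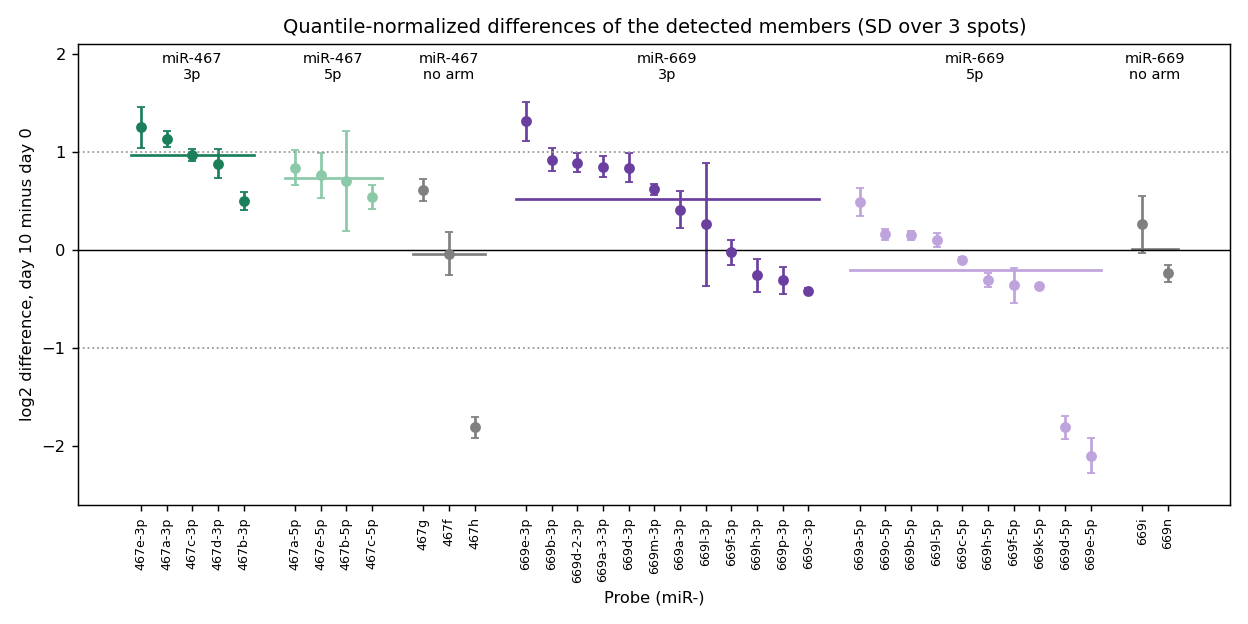
Log2 difference, day 10 minus day 0, of the 36 detected members after quantile normalization, by family and arm, with the SD over 3 spots as error bar and a line at each class median. Dotted lines mark a 2-fold difference. The class medians are 0.97, 0.73, 0.51 and -0.21 for miR-467 3p, miR-467 5p, miR-669 3p and miR-669 5p, and these signs change with the scaling between arrays.

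All 3p arms of miR-467 lay above 0 under quantile normalization. All 5 were detected on both days, 2 were at least 2-fold higher, and the differences ran from 0.50 to 1.25. miR-467e-3p had spot signals of 670, 709 and 763 on day 10, against 514, 729 and 775 on day 0, and was 2.38-fold higher after normalization (log2 difference 1.25, SD 0.21). miR-467a-3p, the 3p arm of the precursor with 10 copies, had 1345, 1337 and 1685 on day 10, against 1257, 1419 and 1582 on day 0, and was 2.19-fold higher (1.13, SD 0.083). For both, the spots of the 2 days overlapped, and the raw log2 ratios were -0.042 for miR-467e-3p and -0.078 for miR-467a-3p, so both were higher relative to the bulk of probes and not in signal as deposited. Their sign turned on scaling to the 5S rRNA probes, to -0.035 for miR-467e-3p and -0.11 for miR-467a-3p. miR-467c-3p lay just under the 2-fold line, with 784, 846 and 975 on day 10, against 866, 956 and 1124 on day 0 (0.97, SD 0.060). The 2 others were miR-467d-3p, with 0.88 (SD 0.15), and miR-467b-3p, with 0.50 (SD 0.091). miR-467b-3p had 2062, 2013 and 2552 on day 10, against 2719, 2981 and 3419 on day 0, with no overlap. It differs from miR-467d-3p by A18U, counted from 1 at the 5′ end of miR-467b-3p, and the gap between the 2 members was -0.38 (SD 0.17).

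The 5p arms of miR-467 resembled each other as well. The 4 detected ones ran from 0.54 to 0.84 and none reached 2-fold. miR-467a-5p had 543, 496 and 591 on day 10, against 597, 675 and 679 on day 0 (log2 difference 0.84, SD 0.18), and the spots did not overlap. miR-467b-5p had 552, 327 and 619 on day 10, against 594, 661 and 699 on day 0 (0.70, SD 0.51), and 1 of its day 10 spots was far dimmer than the others. miR-467c-5p had 260, 256 and 295 on day 10, against 350, 403 and 454 on day 0 (0.54, SD 0.12). The seed of miR-467a-5p is that of miR-290-3p and miR-292-3p, and it contains the hexamer AAGUGC of the miR-290 and miR-302 families, which promote the rapid cell cycle of embryonic stem cells. The differences were 0.49 (SD 0.078) for miR-290-3p and 0.47 (SD 0.080) for miR-292-3p. Counting every probe whose target has AAGUGC starting at base 1, 2 or 3, the 3 detected members had a median of 0.70 and the 15 other detected probes one of 1.23, with 8 of those 15 at least 2-fold higher and none lower. All 8 belong to the miR-17 and miR-302 families, among them miR-20a-5p with 1.23 (SD 0.17) and miR-302d-3p with 2.48 (SD 0.12).

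The 3p arms of miR-669 were more spread, from -0.42 to 1.31 over 12 detected probes, of which 1 passed 2-fold upwards and 0 downwards. miR-669e-3p had 2662, 2167 and 2531 on day 10, against 1925, 1777 and 2357 on day 0, and was 2.48-fold higher (log2 difference 1.31, SD 0.20). It was the only called member whose median signal was brighter on day 10 before any normalization, and its difference stayed above 0 in all 10 scaling and background settings, from 0.14 to 1.48. miR-669b-3p had 182, 147 and 183 on day 10, against 174, 165 and 183 on day 0 (0.92, SD 0.12). miR-669d-3p, miR-669d-2-3p and miR-669a-3-3p had 0.84, 0.89 and 0.85. miR-669d-3p and miR-669d-2-3p differ by 1 base at the 5′ end and had almost the same difference, with a gap of 0.052 (SD 0.18). At the low end, miR-669c-3p had 1833, 1639 and 1828 on day 10, against 4445, 4318 and 4586 on day 0 (-0.42, SD 0.032), and its difference was below 0 in all 10 settings. miR-669p-3p, with -0.31 (SD 0.14), and miR-669h-3p, with -0.26 (SD 0.17), were likewise below 0 in all 10. miR-669m-3p, a dim probe with a median of 85.2 on day 10 and 83.1 on day 0, had 0.62 (SD 0.057). miR-669l-3p, with 0.26 (SD 0.63), had 1 day 10 spot of 58.4 beside spots of 114 and 148, so its value is poorly fixed.

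The 5p arms of miR-669 held the strongest contrasts. Of the 10 detected, 2 passed 2-fold downwards and 0 upwards, and the other 8 lay between -0.37 and 0.49. miR-669e-5p had 462, 361 and 402 on day 10, against 3547, 3517 and 3875 on day 0, and was 4.27-fold lower (log2 difference -2.10, SD 0.18). It was the only member past 4-fold, which 0.947% of all detected probes passed downwards and 0.541% upwards. miR-669d-5p had 393, 329 and 394 on day 10, against 2766, 2748 and 2992 on day 0, and was 3.50-fold lower (-1.81, SD 0.12). Neither had spots that came near those of the other day. The differences ran from -3.25 to -1.91 for miR-669e-5p and from -3.02 to -1.68 for miR-669d-5p over 10 scaling and background settings, and both were at least 2-fold lower in each. The authors' deposited table gives the same picture, with 544 on day 10 and 2441 on day 0 for miR-669e-5p, and 486 on day 10 and 1911 on day 0 for miR-669d-5p. Next to these, miR-669k-5p had -0.37 (SD 0.0031), miR-669f-5p -0.36 (SD 0.18), miR-669c-5p -0.10 (SD 0.031), miR-669b-5p 0.15 (SD 0.044) and miR-669o-5p 0.16 (SD 0.058). miR-669a-5p, the arm with the most precursor copies, had 619, 519 and 666 on day 10, against 953, 889 and 973 on day 0 (0.49, SD 0.14), the highest value among the 5p arms of miR-669. miR-669h-5p, not detected on day 10, had -0.31 (SD 0.070) and is given no fold.

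Both arms were detected, on day 0 or on both days, for 12 precursors. In 9 of them the 3p arm had the higher difference under quantile normalization. The gap, 3p minus 5p, had a median of 0.32 over the 12 and ran from -0.32 to 3.40. The count of 9 moved with the setting. For miR-669h, whose 5p arm was not detected on day 10, the gap was 0.058 (SD 0.19) and above 0 in 3 of 10 settings. For miR-669a it was -0.079 (SD 0.24) and above 0 in 5 of 10. The gap of miR-669l, 0.16, lay within its spot SD of 0.63. For miR-669e the 3p arm had 1.31 and the 5p arm -2.10, a gap of 3.40 (SD 0.27), and the arms moved in opposite directions in all 10 settings. For miR-669d the arms had 0.84 and -1.81, a gap of 2.65 (SD 0.19) that stayed between 2.65 and 3.27. The next gap was 0.77 (SD 0.13), for miR-669b, whose arms had 0.92 and 0.15. Precursor gene Mir669b lies between Mir669e and Mir669d in the order of the cluster, so these 3 gaps belong to adjacent genes, although miR-669d-5p has a further precursor. The nearby Mir669f, next to Mir669e on the other side, had arms at -0.024 and -0.36, a gap of 0.34 (SD 0.23). In miR-467 the gaps were small, from -0.20 to 0.49 over 4 precursors. For miR-669c the order of the arms was turned, with -0.42 for 3p and -0.10 for 5p (gap -0.32, SD 0.044), and it was below 0 in all 10 settings. For miR-669a, whose 2 probes also match other members, the arms were alike within their spot SD, at 0.41 and 0.49.

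**Figure D3:**
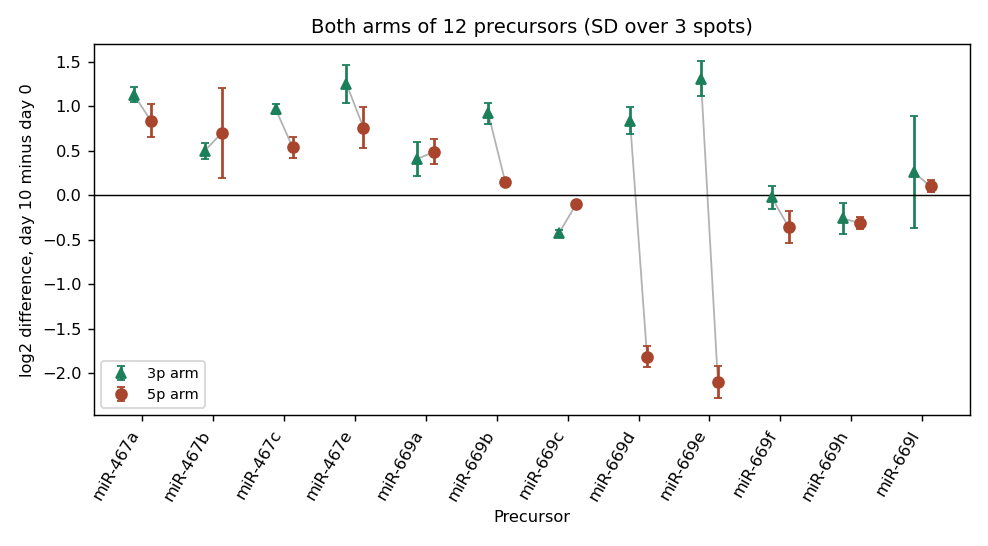
Log2 difference, day 10 minus day 0, of the 3p arm (triangle) and the 5p arm (circle) of the 12 precursors with both arms detected, with the SD over 3 spots. The miR-669h 5p arm was detected on day 0 alone. The arms of miR-669e and miR-669d lie 3.40 and 2.65 apart, and those of the other 10 precursors at most 0.77.

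Members 1 base apart did not always go together. miR-467e-5p and miR-467h differ by A10U, counted from 1 at the 5′ end of miR-467e-5p, and share their seed. miR-467h, encoded on chromosome 9, had 262, 267 and 268 on day 10, against 2282, 2016 and 2137 on day 0, and was 3.50-fold lower (log2 difference -1.81, SD 0.11). miR-467e-5p, encoded within Sfmbt2, had 312, 343 and 372 on day 10, against 483, 399 and 436 on day 0 (0.76, SD 0.23). The gap, miR-467h minus miR-467e-5p, was -2.57 (SD 0.26) and stayed between -2.97 and -2.57 over 10 settings. A like gap separated miR-669d-5p and miR-669l-5p, which differ by C2G, counted from 1 at the 5′ end of miR-669d-5p, a base within the seed. miR-669l-5p had 632, 603 and 556 on day 10, against 1413, 1225 and 1185 on day 0 (0.10, SD 0.068), and the gap, miR-669d-5p minus miR-669l-5p, was -1.91 (SD 0.14). The 6 other pairs 1 edit apart had gaps of at most 0.63 in size. The pair with that gap, miR-669d-2-3p and miR-669l-3p, had an SD of 0.64.

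The 3 lower members share a feature of sequence that their names do not show. Each target holds UGUGUG, shown here in capitals.
miR-669e-5p: ugucuUGUGUGugcauguucau
miR-669d-5p: acuUGUGUGugcauguauaugu
miR-467h: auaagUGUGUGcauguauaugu
The motif was searched on the target strand, and its reverse complement CACACA was searched separately. UGUGUG occurs in 11 members and in 3.56% of all 1265 targets, and CACACA in 17 members and in 2.92%. Of the 11 members with UGUGUG, 3 were lower and none higher, with a median difference of -0.24. The 25 detected members without it had 3 higher and none lower, with a median of 0.62. As the motif was picked out as shared by the 3 lower members, where these fall was fixed in advance. No 3p arm holds UGUGUG, so this split is in part one by arm. Among the 5p arms, the 9 with UGUGUG had a median of -0.10 and the 5 detected without it 0.70, while the 17 detected 3p arms had 0.84. All 9 with UGUGUG are miR-669 arms, while those without it are the 4 detected miR-467 arms and miR-669h-5p, at -0.31. Among the 5p arms the split is thus nearly one by family, and repeat and family cannot be told apart. Members with the repeat were not all low, as the other 8 with UGUGUG lay between -0.37 and 0.49, miR-669l-5p and miR-669a-5p among them. The same lean was present outside the families. Among 32 other detected probes with UGUGUG, 14 were lower (43.8%) and 1 higher, against 60 lower of 671 without it (8.94%). Taking away miR-297 and miR-466 as well, 7 of 15 probes with UGUGUG were lower (46.7%). The median day 0 signal was 1844 for the 32, 2439 for the 15 and 169 for the 671. These shares thus come from probes of unlike brightness, and the offset shrinks the differences of dim probes. The 17 members with CACACA, all detected, had 3 higher and 0 lower and a median of 0.61. No 5p arm holds CACACA, so this split too is in part one by arm. Among the detected 3p arms, the 14 with CACACA had a median of 0.73, with 3 higher. The 3 without it had a median of 0.84, with 0 higher. Among the 19 other detected probes with CACACA 3 were higher and 0 lower, against 44 higher of 684 without it. Those 3 belong to miR-297 and miR-466, and of the 7 detected probes with CACACA outside all 4 families 0 were higher and 0 lower, with a median of 0.27. UGUGUG members were also bright on day 0, at a median of 603 on day 10 and 2137 on day 0, while the members without it had 692 on day 10 and 729 on day 0. In all, 13 members had a day 0 signal at least as high as that of miR-467h, the dimmest on day 0 of the 3 lower members. All 3 lower members are among these 13 by that choice of cut. Of all 87 detected probes at least as bright on day 0, these 13 included, 20 were lower. The cut was set by the lower members, so no conclusion is drawn from these counts. The 10 of these 13 members that were not called lower ran from -0.42 to 0.88. The part of sequence or of day 0 signal in the differences was not tested.

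**Figure D4:**
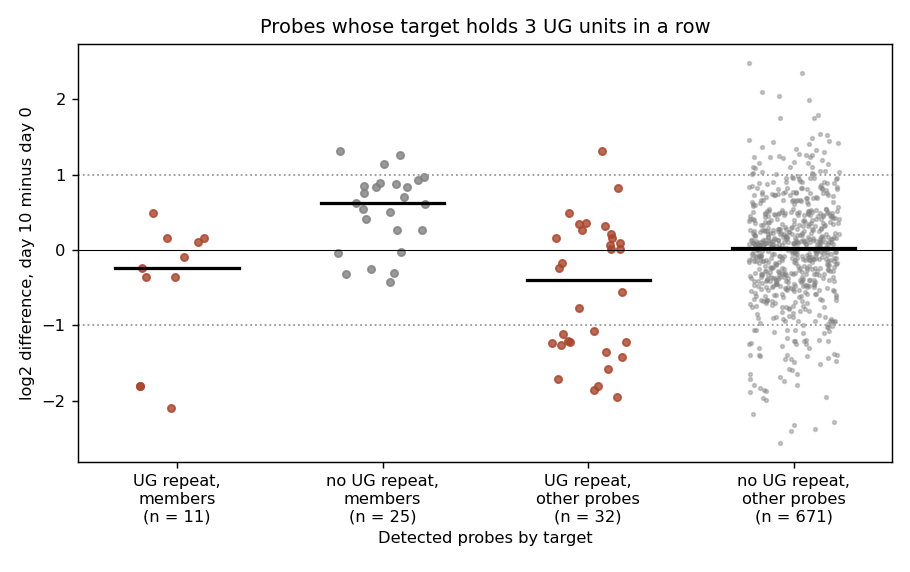
Log2 difference, day 10 minus day 0, of every detected probe, parted by whether its target holds UG 3 times in a row and by membership of miR-467 or miR-669; each point is a probe, bars are medians and dotted lines mark 2-fold. The 11 members with the repeat have a median of -0.24 and the 25 without it 0.62, against -0.40 and 0.024 for the other probes. The repeat was picked out as shared by the members called lower.

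Of the 4 members encoded outside Sfmbt2, miR-467h was lower and the other 3 did not reach 2-fold. miR-467f had 1962, 2492 and 2597 on day 10, against 4425, 4263 and 4381 on day 0 (log2 difference -0.041, SD 0.22). miR-669n had 1256, 1242 and 1212 on day 10, against 3324, 2917 and 2909 on day 0 (-0.24, SD 0.091), and miR-467g had 0.61 (SD 0.11). Their median was -0.14, and that of the 32 detected members within Sfmbt2 was 0.45. The detected member within the cluster that names no arm, miR-669i, had 140, 108 and 94.5 on day 10, against 206, 158 and 191 on day 0 (0.26, SD 0.29).

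Some seeds, but not all, were held by members of both families. The 7 detected members with the seed UAUACAU, 4 of miR-467 and 3 of miR-669, had a median difference of 0.88 and a range from 0.26 to 1.25, with 1 higher and 0 lower. The 3 with AUAUACA, miR-467a-3p, miR-669b-3p and miR-669f-3p, had a median of 0.92 and ran from -0.024 to 1.13. The 3 with GUUGUGU, the 5p arms of miR-669a, miR-669f and miR-669l, had a median of 0.10 and ran from -0.36 to 0.49. A shared seed did not bring like values for miR-467e-5p and miR-467h, as given above.

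Position in the cluster was described for miR-669 by whether the precursor lies upstream of Mir467c. The 6 detected 3p arms upstream of it had a median difference of 0.87, with 1 higher, and the 6 from it onwards one of 0.076, with 0 higher. The 5 detected 5p arms upstream had a median of -0.36 and held both lower members, miR-669d-5p and miR-669e-5p, and the 5 from it onwards had a median of -0.10 with 0 lower. Among all detected probes 6.77% were higher and 10.4% lower. This cut was not among the planned comparisons and puts both lower 5p arms on the same side, so no conclusion is drawn from it. The 3p arms also differed in brightness, with median day 0 signals of 203 upstream and 2115 onwards. Upstream, miR-669d-3p, miR-669d-2-3p and miR-669l-3p are near copies of each other. The part of position was not tested.

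The cluster's other families, miR-297 and miR-466, showed the same order of arms. They have 31 probes, of which 29 were detected, with 3 higher and 7 lower and a median difference of 0.13. Their 10 detected 3p arms had a median of 0.74 and their 14 detected 5p arms one of 0.085, with 3 higher among the 3p arms and 4 lower among the 5p arms. These probes are near copies of the members, so their values are not separate evidence.

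**Figure D5:**
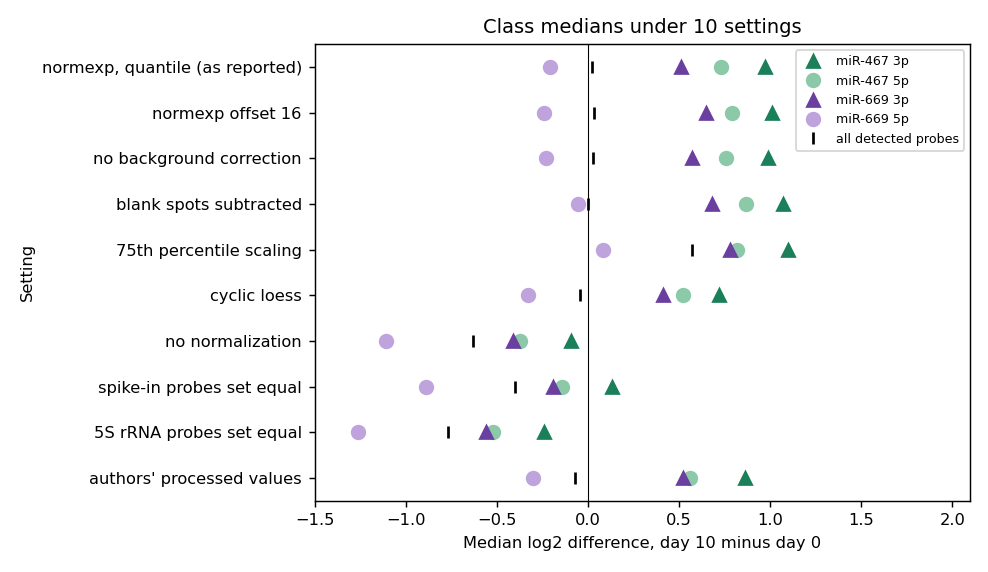
Median log2 difference, day 10 minus day 0, of the 4 classes of members (triangles for 3p, circles for 5p) and of all detected probes (black tick) under 10 settings of background correction and scaling. miR-467 3p lies rightmost and miR-669 5p leftmost of the 4 classes in each setting, while their place relative to 0 moves, from 0.97 and -0.21 as reported to -0.24 and -1.26 when scaled to the 5S rRNA probes.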

How the data were processed

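Mature miRNAs listed in miRBase release 19 were measured on 2 single-colour arrays, 1 for day 10 and 1 for day 0. The scanner files hold a linear spot intensity (median density), per the file headers. They give no background column, and any background subtraction by the authors is not given in the sources used here. A table deposited by the authors holds 1 processed intensity per probe, with its scaling not given in the sources used here, and was tried as an alternative after adding 50 and taking log2.

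Signals were corrected with normexp (limma 3.58.1, R 4.3.3; offset 50, all 3968 spots), log2 transformed, freed of control spots and quantile normalized over 1265 probes. A probe's value is the mean over 3 spots. A member was called higher or lower at a log2 difference of 1 in size, where the brighter array detected it. The number of arrays limits the precision. Named members were those past 2-fold, the extremes of each class of family and arm, both arms of a precursor, members without an arm, and pairs 1 edit apart; these pairs and a few further probes were chosen after values were seen. The members and lists were chosen with earlier results of these data known. The normalization and fold threshold were tried on simulated arrays with known changes in bright probes. The simulation left out the detection rule and any uptake of RNA between near-identical probes, so it does not bear on these.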

Additional observations from a re-analysis of the deposited data

How the results depend on the processing

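No paired analysis was possible because there was only 1 array per day. The gap between 3p and 5p arms and the gap between miR-467 and miR-669 kept their sign under every alternative tried. Settings that differ only by a constant shift of 1 array could not change them. With near-identical members of a class averaged to 22 values, the arm gap was 0.57, the family gap 0.93, the median of the members 0.011 and the count higher 1. The median of the members was -0.56 without normalization, -0.34 scaled to spike-in probes, -0.71 scaled to 5S rRNA probes, 0.63 with 75th percentile scaling and 0.21 with no detection filter. Without normalization 0 members were higher and 13 lower. Scaled to spike-in probes these counts were 0 and 8, scaled to 5S rRNA probes 0 and 15, and at a 4-fold threshold 0 and 1. With 75th percentile scaling 9 were higher, with blank spots subtracted 8 and with an offset of 16, 7. Of 54 values of the 6 called members under 9 settings, 44 kept the call, 8 lost it and 2 changed sign, miR-467a-3p (-0.11) and miR-467e-3p (-0.035), both scaled to 5S rRNA probes.

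Class medians changed sign as follows. Without normalization they were -0.094 for miR-467 3p, -0.37 for miR-467 5p and -0.41 for miR-669 3p. Scaled to spike-in probes they were -0.14 for miR-467 5p and -0.19 for miR-669 3p, and scaled to 5S rRNA probes -0.24, -0.52 and -0.56 in the first order. With 75th percentile scaling miR-669 5p was at 0.082, and averaging near-identical members put the median relative to all detected probes at -0.014. Putting the 7 members without an arm with the arm of nearest sequence, chosen after seeing the data, gave an arm gap of 0.62. Causes were not tested. Signal over background limits the dim members, 4 of which were detected on neither day.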
